A study of Mus musculus with 59 samples.

Results

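Prostaglandins and leukotrienes are lipid mediators made from arachidonic acid, and 10 genes of their synthesis, breakdown and sensing were followed here in cultured microglia of the mouse, which are the macrophages that reside in brain tissue. The genes were Ptgs1, Ptgs2, Ptges, Tbxas1, Hpgds, Hpgd, Ptger2, Ptger4, Alox5 and Alox5ap, taken by symbol from the deposited expression tables. All 10 were found among 32070 genes. The cells were primary microglia of newborn pups with a floxed allele of Tbk1, which encodes a kinase of innate immune signalling. WT cultures were Tbk1fl/fl without Cx3CR1-Cre, HET cultures were Tbk1fl/+ with Cx3CR1-Cre, and KO cultures were Tbk1fl/fl with Cx3CR1-Cre, a Cre recombinase driven by a gene active in microglia and other mononuclear phagocytes. WT therefore lacks Cre, and KO against HET is the comparison that holds Cre constant. The cells stood for 16 h after plating and then received for 24 h fresh medium alone (UT), 100 ng/mL of LPS (lipopolysaccharide, from the outer membrane of bacteria), 20 ng/mL of IL4 (interleukin-4, a type 2 cytokine), or pIC (poly(I:C), an artificial double-stranded RNA), whose dose the sources used here do not give. The 59 libraries fall into 12 groups of 5, except 4 for untreated WT (its replicate 5 was not analysed here). The labels describe the replicates as independent cultures.

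As background, cyclooxygenases turn arachidonic acid into prostaglandin H2, which terminal synthases convert into prostaglandin E2, prostaglandin D2 or thromboxane A2. In a separate branch, 5-lipoxygenase with its helper protein FLAP starts leukotriene synthesis. In microglia and other macrophages the inducible cyclooxygenase and the inducible prostaglandin E synthase are known as part of the response to bacterial products, and prostaglandin E2 acts on the same cells through its EP receptors.

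Values are in TPM, a share of a library's transcripts after division by gene length, with the same total for all libraries, and read depth is unknown. Tbk1 itself, the check of the labels, was 45.3, 53.8, 45.1 and 46.0 TPM in untreated WT, 35.4, 34.8, 36.9, 35.0 and 32.3 in untreated HET and 18.2, 27.8, 16.5, 20.7 and 16.5 in untreated KO. The Tbk1 levels of the 3 genotypes did not overlap under UT, LPS, IL4 or pIC. The summed level of 11 microglia markers, all 11 in the files, ran from 6375 to 7184 TPM in untreated WT. Transcripts of other brain cells were also present. In untreated WT, oligodendrocyte lineage markers summed to 898 to 2204 TPM, neuron markers to 164 to 292 and astrocyte markers to 128 to 206. The oligodendrocyte lineage sum was 101 to 702 TPM in WT LPS. The part of these cells in the results was not tested. No result below separates fewer cells of a type from less RNA per cell, because these are bulk samples. The pIC libraries were deposited in a table of their own, so they were tested only against each other. KO pIC replicate 4 was the highest or lowest KO pIC library in several of the 10 genes, though by Dixon's test none of its values was an outlier, and results that rest on it are given with and without it. Log2 differences are on the log2(TPM + 1) scale, which understates changes of genes with low values, with standard errors (SE) and adjusted p from limma.

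**Figure D1:**
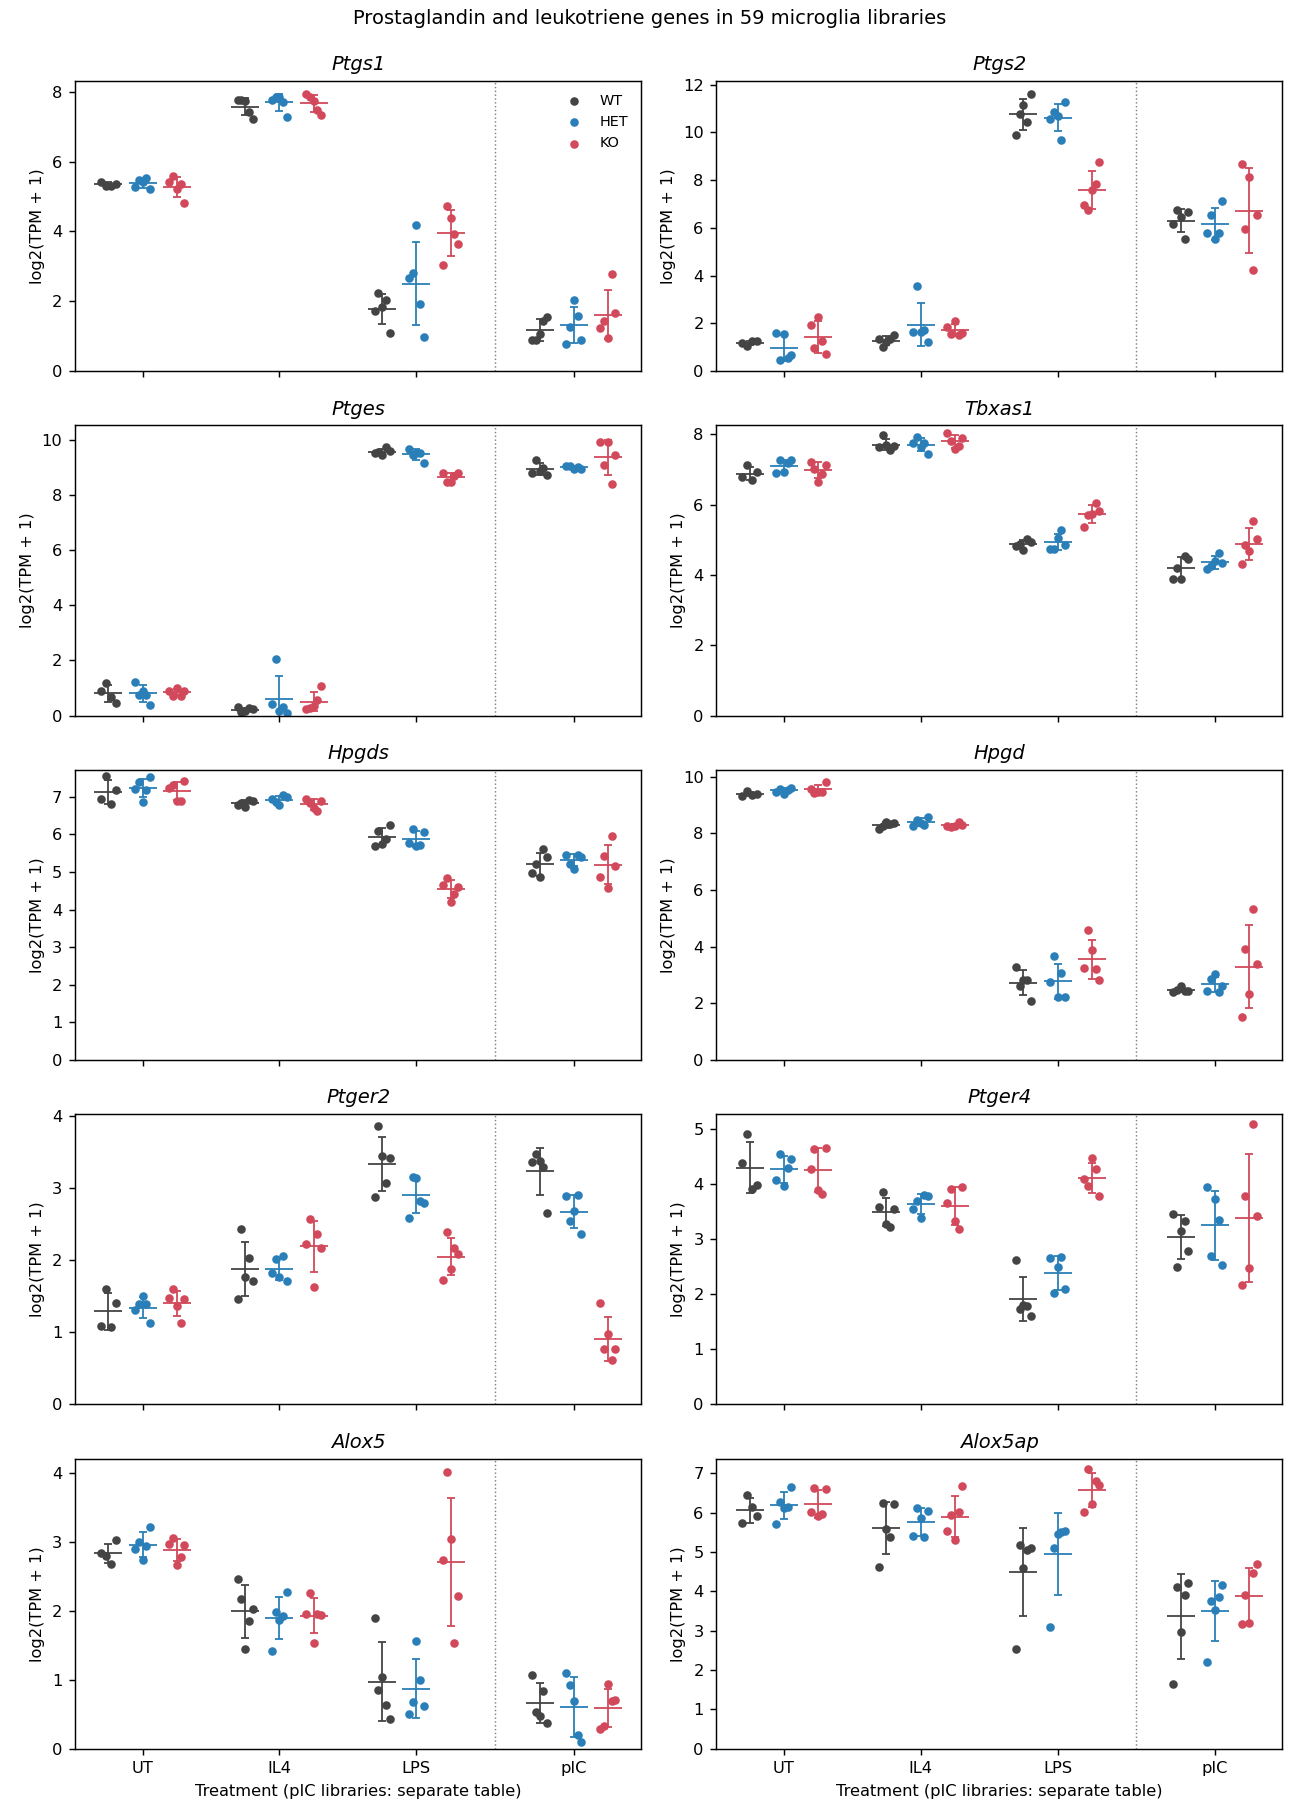
Levels of the 10 genes in each library as log2(TPM + 1), by treatment and genotype (points: libraries; horizontal marks and bars: mean ± SD of the group); the dotted line sets off the pIC libraries, which come from a separate table. Ptgs2 and Ptges are high in LPS and pIC libraries and near 1 TPM in the untreated ones, and under LPS the KO libraries of all genes but Hpgd, Alox5 and Ptgs1 lie apart from both other genotypes.

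LPS raised the prostaglandin E2 synthesis pair and the EP2 receptor and lowered the other 7 genes in WT and HET. Ptgs2, the inducible cyclooxygenase known as COX-2, was 1.27, 1.05, 1.39 and 1.36 TPM in the 4 untreated WT libraries and 934, 1753, 2245, 1366 and 3083 in the 5 WT LPS libraries. Its log2 difference was 9.58 ± 0.38 (adjusted p = 1.42e-23) in WT and 9.65 ± 0.36 in HET. Ptges, the inducible microsomal prostaglandin E synthase that acts after COX-2, went from 0.848, 1.27, 0.607 and 0.374 TPM to 734, 756, 704, 848 and 768 in WT, a log2 difference of 8.77 ± 0.23 (adjusted p = 1.71e-29). For both genes the lowest LPS library was far above the highest untreated one. Ptgs1, the constitutive cyclooxygenase COX-1, moved the other way, from 42.1, 38.7, 38.7 and 40.4 TPM in untreated WT to 2.28, 3.68, 2.56, 3.08 and 1.14 under LPS (-3.58 ± 0.33, adjusted p = 2.39e-12). The 2 cyclooxygenases thus exchanged places. Ptgs2 made up 3.08% ± 0.361 (SD, n = 4) of the summed TPM of Ptgs1 and Ptgs2 in untreated WT and 99.8% ± 0.0876 (SD, n = 5) in WT LPS.

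In GENCODE on mm10 the protein-coding genes Ptgs2, Ptges and Ptgs1 span chr1:150100031-150108227, chr2:30889471-30929863 and chr2:36230426-36252272. The RefSeq start site of Ptges lies inside its GENCODE span, which an upstream start of another transcript extends. The 250 bases before the start site of these cyclooxygenases and of Ptges, from RefSeq on GRCm38.p6, are shown because Ptgs2 and Ptges rose together while Ptgs1 fell. They lie at chr1:150099781-150100030 on the plus strand for Ptgs2, chr2:30903298-30903547 on the minus strand for Ptges and chr2:36230176-36230425 on the plus strand for Ptgs1, and capitals mark matches to the motifs searched.
Ptgs2: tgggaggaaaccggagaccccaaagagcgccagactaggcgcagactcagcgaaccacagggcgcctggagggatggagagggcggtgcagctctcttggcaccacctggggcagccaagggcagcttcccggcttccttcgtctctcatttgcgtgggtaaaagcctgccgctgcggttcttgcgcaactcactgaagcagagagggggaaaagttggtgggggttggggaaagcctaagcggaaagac
Ptges: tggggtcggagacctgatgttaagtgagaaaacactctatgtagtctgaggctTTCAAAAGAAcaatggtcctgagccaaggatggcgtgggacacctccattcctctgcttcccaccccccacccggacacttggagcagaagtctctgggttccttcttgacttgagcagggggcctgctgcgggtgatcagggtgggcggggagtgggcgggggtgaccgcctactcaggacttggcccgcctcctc
Ptgs1: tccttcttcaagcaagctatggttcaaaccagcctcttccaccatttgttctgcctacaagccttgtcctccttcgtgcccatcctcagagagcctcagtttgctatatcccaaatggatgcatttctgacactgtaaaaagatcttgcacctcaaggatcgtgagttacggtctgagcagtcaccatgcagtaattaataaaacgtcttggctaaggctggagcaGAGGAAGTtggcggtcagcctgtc
The motifs, searched on both strands, were the NF-kB consensus, the cyclic AMP response element core TGACG, AP-1 TGANTCA, the C/EBP forms TTGCNNAAT and TTNNGNAAT, the STAT form TTCNNNGAA, the STAT6 form (the same with a spacer longer by a base), the interferon-stimulated response element (ISRE) core, the PU.1 core GAGGAAGT, the E-box CACGTG and TATAAA. Only exact matches within the 250 bases before the start site were counted, so variant sites and sites elsewhere are not marked. The window of Ptgs2 held no exact match, though it holds ttgcgcaac, which departs from TTGCNNAAT in its last base. Ptges held the STAT6 form, which 5.85% of 32851 RefSeq promoters hold. Ptgs1 held the PU.1 core, which 2.44% hold, and so did Hpgds. Hpgds and Ptger2 held TTNNGNAAT (10.2% of promoters), and Tbxas1 held AP-1 (6.75%), the STAT6 form and TATAAA (12.4%, matched on both strands at overlapping positions). Hpgd, Ptger4 and Alox5 held no match, and 9 of the 10 genes were in the promoter table. The remaining motifs occur in 3.90% of promoters for NF-kB, 17.8% for TGACG, 2.11% for TTGCNNAAT, 7.02% for TTCNNNGAA, 2.98% for the ISRE core and 6.02% for the E-box.

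**Figure D2:**
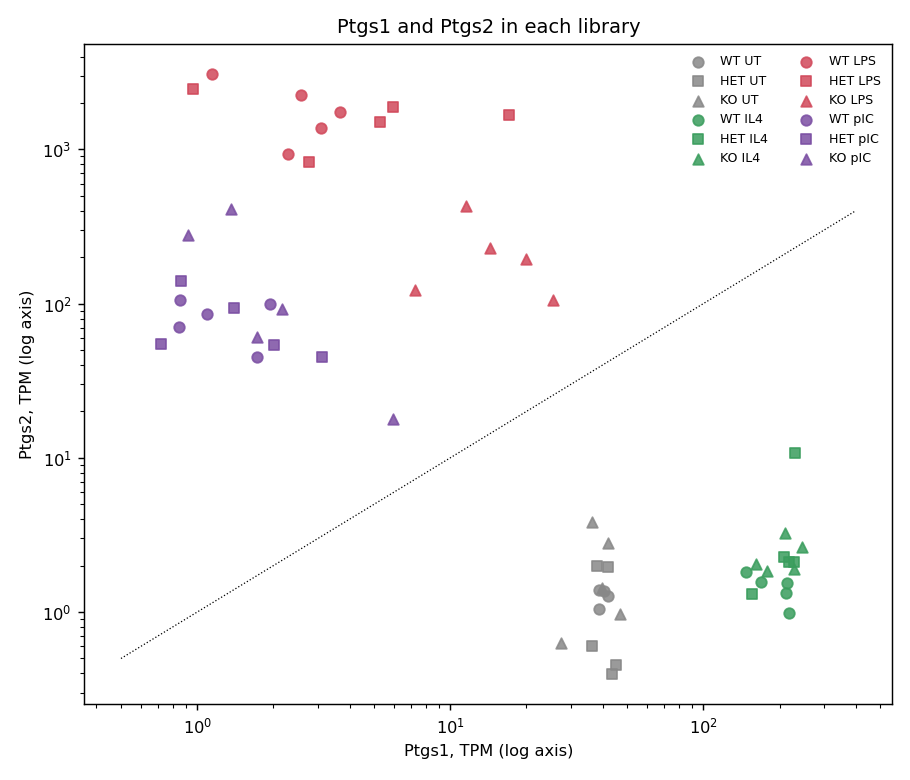
Ptgs2 against Ptgs1 in TPM for each of the 59 libraries, both axes logarithmic (colours: treatments; shapes: genotypes; dotted line: equal levels). Untreated and IL4 libraries lie below the line and LPS and pIC libraries above it, with KO LPS libraries closer to the line than those of WT LPS.

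The dehydrogenase that inactivates prostaglandins and the synthases of prostaglandin D2 and thromboxane A2 fell with LPS in all genotypes. Hpgd, 15-hydroxyprostaglandin dehydrogenase, which inactivates prostaglandins, was 636, 725, 652 and 672 TPM in untreated WT and 8.76, 5.13, 6.07, 6.16 and 3.25 under LPS. Its log2 difference was -6.66 ± 0.23 for WT, -6.74 ± 0.22 for HET and -6.00 ± 0.22 for KO. Hpgds, the haematopoietic prostaglandin D synthase, went from 121, 186, 112 and 144 TPM to 50.6, 66.8, 52.1, 57.3 and 75.4 in WT (-1.20 ± 0.14). Tbxas1, thromboxane A synthase, went from 109, 138, 103 and 120.0 TPM to 27.1, 28.6, 25.0, 31.7 and 29.4 (-2.01 ± 0.13). The untreated and LPS ranges of these 3 genes were separate in every genotype.

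The EP receptors went opposite ways. Ptger2, which encodes EP2, was 1.12, 2.04, 1.11 and 1.64 TPM in untreated WT and 6.36, 13.5, 9.86, 7.44 and 9.7 under LPS (2.04 ± 0.19, adjusted p = 1.87e-12). Ptger4, which encodes EP4, was 19.8, 29.0, 14.0 and 14.7 TPM and 5.13, 2.33, 2.48, 2.46 and 2.04 (-2.38 ± 0.21, adjusted p = 1.12e-12). Both receptors couple to cyclic AMP production. On the leukotriene side, Alox5, which encodes 5-lipoxygenase, was 6.14, 5.9, 5.39 and 7.12 TPM untreated and 2.73, 0.807, 1.06, 0.557 and 0.343 under LPS (-1.86 ± 0.29). Alox5ap, which encodes FLAP, was 52.0, 85.9, 69.5 and 59.2 TPM and 4.84, 34.9, 22.9, 32.2 and 33.1 (-1.57 ± 0.41, adjusted p = 0.00088). WT LPS replicate 1 was far below the other 4 for Alox5ap, and that replicate was the lowest for this gene in 9 of the 12 groups.

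Of the 10 genes, 3 rose and 7 fell with LPS in WT, against 13.9% of 15908 genes tested that rose and 61.9% that fell. The HET counts were also 3 and 7, against 14.3% and 59.7%. In KO 3 rose and 4 fell, against 13.1% and 56.5%. A fall is thus the usual direction on this scale, where the median of all genes was -0.59 for WT, -0.51 for HET and -0.44 for KO. With median-of-ratios scaling, which removes most of that shift, 31.6% of genes rose and 32.3% fell in WT, the HET shares were 32.3% and 32.6%, and the KO shares 29.4% and 29.1%. Under it the fall of Alox5ap was no longer called in WT (-0.91, adjusted p = 0.0875) or HET (-0.63, adjusted p = 0.206).

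In KO the LPS response of 9 of the 10 genes differed from that of WT, beside 9.36% of all genes higher and 7.03% lower. The same number differed from that of HET, beside 7.69% and 6.15%. The calls of Ptgs1, Ptges and Alox5ap against HET did not hold under all alternatives. Ptgs1 lost its call in a fit of the compared groups alone (adjusted p = 0.0828). The prostaglandin E2 branch rose less. Ptgs2 was 1511, 1874, 1666, 831 and 2449 TPM in the HET LPS libraries and 123, 106, 193, 229.6 and 429.7 in KO, with no overlap between KO and either other genotype. KO against WT under LPS was -3.18 ± 0.36 (adjusted p = 3.33e-09) and KO against HET -3.04 ± 0.36 (adjusted p = 1.23e-08). The level in KO LPS was still 6.15 ± 0.36 above untreated KO. Ptges was 814, 709, 743, 739.9 and 572 TPM in HET LPS and 446, 351, 357, 409 and 442 in KO LPS. All 5 KO values lay below all WT and HET values, and KO against WT was -0.93 ± 0.21 (adjusted p = 0.000678). With a pseudocount of 0.1 in place of 1 this Ptges difference had adjusted p = 0.113 against WT and 0.179 against HET at nearly the same size, and the difference of its LPS responses (-0.96 ± 0.31 against WT, -0.86 ± 0.30 against HET) was not called with it either, nor without the filter on low values (adjusted p = 0.0514 and 0.0946).

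Ptgs1 fell less in KO. It was 5.3, 5.96, 17.1, 2.77 and 0.962 TPM in HET LPS and 7.25, 25.4, 19.9, 14.3 and 11.6 in KO LPS, and KO against WT was 2.17 ± 0.31 (adjusted p = 4.32e-07). KO and WT did not overlap, while HET replicate 3 reached into the KO range. KO against HET was 1.45 ± 0.31, and a fit of those groups alone did not call it. Ptgs2 still made up 91.4% ± 6.52 (SD, n = 5; 80.6% to 97.4%) of the cyclooxygenase TPM in KO LPS, against 99.6% ± 0.361 (SD, n = 5) in HET LPS.

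**Figure D3:**
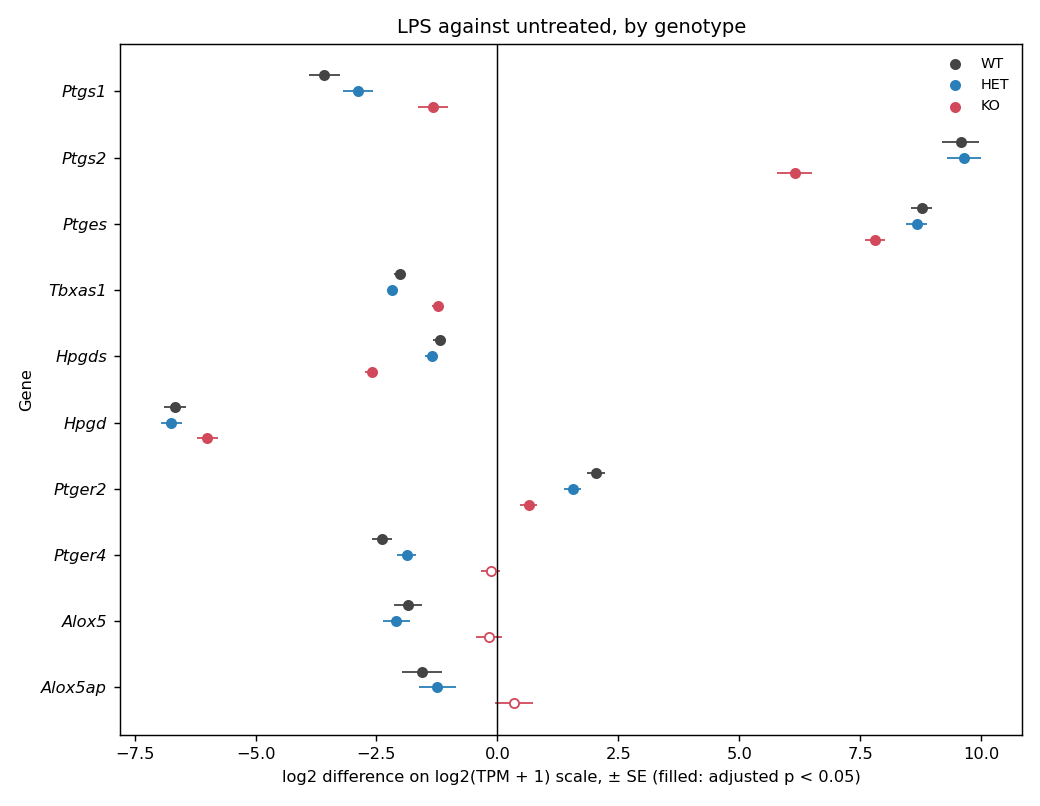
Log2 difference of LPS against untreated for each gene in WT, HET and KO, with SE (filled points: adjusted p under 0.05; open points: not called). The KO points of Ptgs2 and Ptger2 lie closer to 0 than those of WT and HET, that of Hpgds lies farther from 0, and Ptger4, Alox5 and Alox5ap are not called in KO.

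Hpgds fell further in KO than in WT or HET. Under LPS it was 53.8, 69.8, 50.4, 51.4 and 65.5 TPM in HET and 24.2, 27.9, 17.5, 20.2 and 23.4 in KO. The LPS response was -2.60 ± 0.13 in KO against -1.20 ± 0.14 in WT, and the difference of responses was -1.40 ± 0.19 (adjusted p = 9.45e-07). Tbxas1 fell less, to 40.4, 51.5, 51.6, 65.6 and 55.2 TPM in KO LPS against 25.4, 25.9, 32.3, 37.8 and 27.8 in HET (0.80 ± 0.12, KO against HET, adjusted p = 1.47e-06). Among the KO LPS libraries the synthases therefore stood in another order than in WT LPS: the mean of Tbxas1 was 52.9 TPM and that of Hpgds 22.6, against 28.4 and 60.5 in WT. Hpgd was 5.66, 11.7, 3.68, 7.47 and 3.61 TPM in HET LPS and 8.45, 23.0, 13.8, 8.31 and 6.09 in KO LPS, and these ranges overlapped. KO against WT was 0.82 ± 0.22 (adjusted p = 0.00307), but the LPS response itself was not called different (0.66 ± 0.32, adjusted p = 0.166). Without KO LPS replicate 2, the highest, KO against HET was 0.51 and no longer called, and a fit of the compared groups alone called neither genotype difference.

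The EP receptors were again opposite. Ptger2 was 5.01, 7.88, 7.79, 6.06 and 5.94 TPM in HET LPS and 2.31, 4.24, 2.66, 3.49 and 3.25 in KO LPS, all below HET and WT (-1.29 ± 0.17 against WT, -0.85 ± 0.17 against HET). Ptger4 was 5.29, 3.04, 4.63, 5.4 and 3.24 TPM in HET LPS and 15.9, 14.5, 21.1, 18.3 and 12.7 in KO LPS, all above HET and WT (2.20 ± 0.20 against WT, 1.72 ± 0.20 against HET). In KO, Ptger4 under LPS overlapped the untreated range of 13.2 to 24.0 TPM, and LPS against untreated was -0.14 ± 0.20 (adjusted p = 0.55). The leukotriene genes were likewise higher in KO under LPS. Alox5 was 0.423, 0.592, 1.94, 0.999 and 0.537 TPM in HET LPS and 5.64, 15.1, 7.19, 1.9 and 3.65 in KO LPS (1.73 ± 0.27 against WT, adjusted p = 2.92e-06). KO replicate 4 lay inside the WT and HET ranges. Alox5ap was 7.61, 33.5, 42.6, 44.5 and 45.4 TPM in HET LPS and 64.1, 136, 73.9, 110.3 and 103 in KO LPS, with no overlap (2.08 ± 0.39 against WT, adjusted p = 4.78e-05). Its response differed from HET by 1.59 ± 0.55 (adjusted p = 0.0474), a call lost without HET LPS replicate 1, the lowest library (1.13), and with either other scaling, the pseudocount of 0.1 or no filter on low values.

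Under LPS all 10 genes differed between KO and WT, 6 higher and 4 lower, against 14.4% and 13.2% of all genes tested. Against HET the same split was 6 and 4, against 12.5% and 11.5%. The median over the 10 genes was 0.84 against WT, and 0.01 over all genes. For the difference of LPS responses, KO lay above WT in 5 genes and below it in 4, against 9.36% and 7.03%, and above HET in 5 and below it in 4, against 7.69% and 6.15%. With median-of-ratios scaling the background of these responses was 7.18% higher and 10.4% lower against WT, and 6.76% and 8.37% against HET. KO against WT and KO against HET share the KO libraries, so they are not separate evidence. HET and WT under LPS differed in 0 of the 10 genes by limma (0.0126% of all genes), with 3 at an unadjusted p under 0.05. Their LPS responses differed in 0 (0% of all genes, and 0 at an unadjusted p under 0.05).

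Markers of other macrophages and of microglia both moved with KO under LPS. The summed level of 8 border macrophage and monocyte markers, all 8 in the files, was 463 to 555 TPM in WT LPS, 484 to 965 in HET LPS and 949.6 to 1507 in KO LPS. Of 6 that were tested, KO exceeded WT in 3 and was below it in 1, beside 14.4% and 13.2% of all genes. Pf4 and Ms4a7 reached the highest levels of these markers outside pIC, 1301 and 432 TPM. Cd163 stayed at or below 0.37 TPM and Lyve1 at or below 1.25 in every library. The microglia markers summed to 975 to 1217 TPM in WT LPS, 1061 to 1311 in HET LPS and 1304 to 1926 in KO LPS. Of the 11 tested, KO exceeded WT in 5 and was below it in 0. For neutrophils, which also use 5-lipoxygenase, 6 of 9 markers were in the files. In untreated WT they summed to 1.19 to 4.79 TPM. Under LPS the sums were 71.5 to 106 TPM in WT, 46.4 to 103 in HET and 42.5 to 116 in KO. Their highest levels outside pIC were 108 TPM for S100a8, 11.0 for Camp, 1.55 for Cxcr2, 1.00 for Ltf, 0.144 for Ngp and 0 for Mpo. Of 2 that were tested, 2 rose with LPS in WT, beside 13.9% of all genes. Under LPS, KO exceeded WT in 1 of them and was below it in 0. For mast cells, which are known for prostaglandin D2 and leukotriene synthesis, 2 of 8 markers were in the files, Kit and Hdc. They summed to 24.2 to 63.0 TPM in WT LPS, 41.9 to 102 in HET LPS and 12.8 to 54.7 in KO LPS. The part of these cell types in the genotype differences was not tested.

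IL4 raised COX-1 and thromboxane synthase and lowered the dehydrogenase in all 3 genotypes. Ptgs1 was 215, 218, 212, 169.7 and 147 TPM in WT IL4, 219, 230.4, 229, 209 and 156 in HET IL4 and 246, 228, 211, 179 and 161 in KO IL4, each group far above its untreated libraries. The log2 difference was 2.22 ± 0.33 in WT (adjusted p = 4.92e-06), 2.31 ± 0.31 in HET and 2.39 ± 0.31 in KO. Tbxas1 was 199, 251, 206, 186 and 202 TPM in WT IL4 (0.83 ± 0.13, adjusted p = 1.13e-05). Hpgd was 284, 305, 334, 325 and 329 TPM in WT IL4 against 636, 725, 652 and 672 untreated, with a log2 difference of -1.09 ± 0.23 (adjusted p = 0.00126). All 3 genes had separate IL4 and untreated ranges in every genotype.

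Ptgs2 stayed low under IL4, at 1.54, 0.986, 1.33, 1.55 and 1.82 TPM in WT (0.10 ± 0.38, adjusted p = 0.9). In HET IL4 its mean was 3.70 TPM, the ranges overlapped, and it was not called (0.98 ± 0.36, adjusted p = 0.101). There it was called higher with a pseudocount of 0.1 (1.54, adjusted p = 0.029) and under quantile normalization (1.00, adjusted p = 0.0476). Ptges was 0.226, 0.089, 0.118, 0.214 and 0.167 TPM in WT IL4, all below untreated WT, but its difference was not called (-0.59 ± 0.23, adjusted p = 0.124). With a pseudocount of 0.1 it was -1.66 (adjusted p = 0.0218). HET IL4 replicate 2 was the highest IL4 library for both Ptgs2 and Ptges. Alox5 was 4.53, 3.5, 1.72, 2.62 and 3.06 TPM in WT IL4 (-0.84 ± 0.29, adjusted p = 0.0793). It was called lower in HET (-1.07 ± 0.27) and KO (-0.96 ± 0.27). The KO call was lost without KO IL4 replicate 3 (-0.86) and with a pseudocount of 0.1 (adjusted p = 0.0554). Ptger4 was 11.0, 13.4, 8.67, 8.29 and 10.7 TPM in WT IL4, below all untreated WT libraries (-0.80 ± 0.21, adjusted p = 0.0137). Its call was lost under median-of-ratios and quantile scaling in each genotype and, in WT, without WT UT replicate 2 (-0.59). A fit of the compared groups alone lost it in WT (adjusted p = 0.0579) and KO (0.0803). Without the filter on low values it was lost in HET (0.0888) and KO (0.0638), and with a pseudocount of 0.1 in HET (0.0685). Ptger2 was 1.74, 4.4, 2.39, 3.09 and 2.28 TPM in WT IL4, overlapping the untreated range (0.59 ± 0.19, adjusted p = 0.0488). It was not called in WT under median-of-ratios scaling, without the filter on low values, in a fit of the compared groups alone or in 7 of 9 fits that left out a library. In KO it was 3.69, 4.94, 2.08, 4.14 and 3.49 TPM, all above untreated KO (0.79 ± 0.17, adjusted p = 0.00166). In HET it was not called (0.53 ± 0.17, adjusted p = 0.0558), though all IL4 libraries lay above the untreated ones. It was called in HET with a pseudocount of 0.1 (adjusted p = 0.0316) and in a fit of the compared groups alone (adjusted p = 0.0337).

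Hpgds was 109, 113, 105, 119.6 and 118 TPM in WT IL4 and was not called in WT (-0.29 ± 0.14, adjusted p = 0.242) or KO (-0.35 ± 0.13, adjusted p = 0.1). With the replicate number as a block it was lower in WT (-0.34, adjusted p = 0.0187) and KO (-0.35, adjusted p = 0.00544). Alox5ap was not called in any genotype. With IL4, 3 of the 10 genes rose and 2 fell in WT, against 3.68% and 2.63% of all genes. In HET 2 rose and 3 fell, against 3.97% and 3.09%, and in KO 3 and 3, against 5.38% and 3.03%. With median-of-ratios scaling the background was 4.41% and 1.41% in WT and 4.31% and 2.19% in HET.

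Genotype made no called difference to the 10 genes without LPS or pIC. Untreated, KO differed from WT in 0 of the 10 genes (0.0314% of all genes), HET from WT in 0 (0.0126%) and KO from HET in 0 (0.00629%) by limma. Under IL4 the counts were 0 for KO against WT (0.044%), 0 for HET against WT (0.0126%) and 0 for KO against HET (0.00629%). No gene of the 10 had an unadjusted p under 0.05 in these 6 comparisons. The IL4 response differed in 0 of the 10 genes between KO and WT (0%), HET and WT (0%), and KO and HET (0%), also with 0 at an unadjusted p under 0.05. The widest untreated difference between KO and WT was that of Ptgs2, 0.25 ± 0.38.

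**Figure D4:**
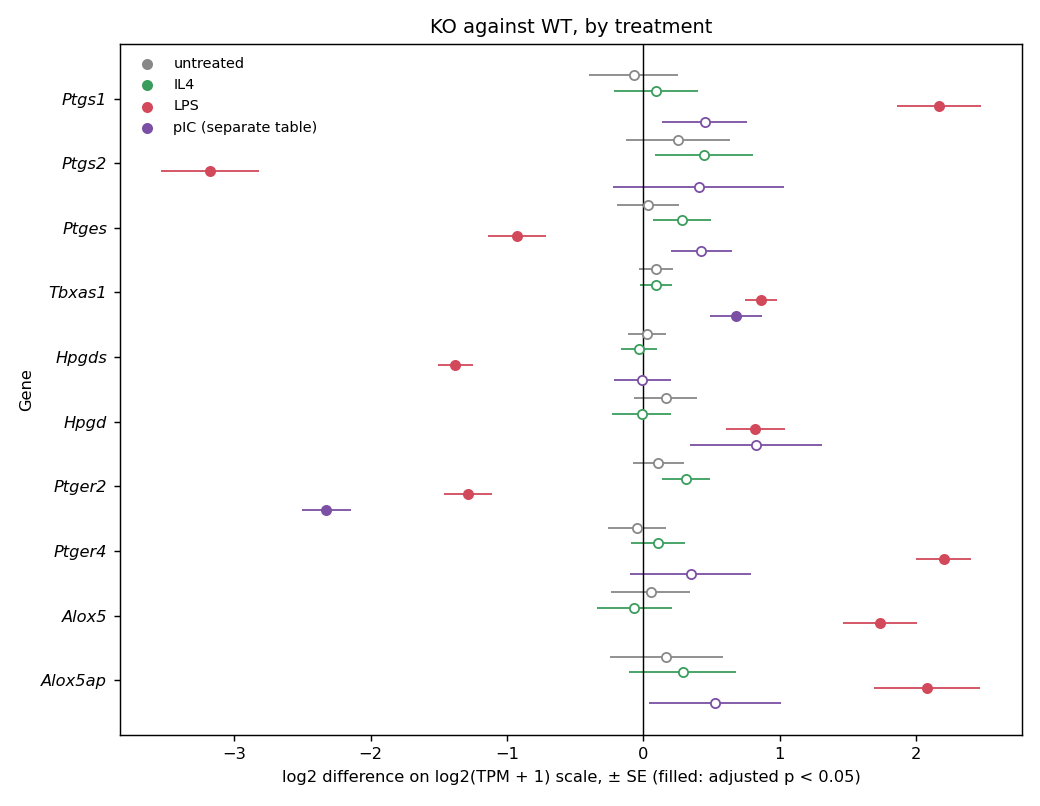
Log2 difference of KO against WT for each gene under UT, IL4, LPS and pIC, with SE (filled points: adjusted p under 0.05; open points: not called; pIC from a separate table, in which Alox5 was too low to test). The LPS points stand away from 0 on both sides of it, none of the UT and IL4 points is called, and Ptger2 has its lowest point under pIC.

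Under pIC the genotypes differed in the EP2 receptor. Ptger2 was 9.31, 10.1, 9.36, 8.81 and 5.32 TPM in WT pIC, 6.39, 4.81, 5.42, 6.45 and 4.14 in HET pIC and 1.65, 0.702, 0.976, 0.533 and 0.704 in KO pIC. All 5 KO libraries lay below the lowest WT and HET libraries. KO against WT was -2.32 ± 0.18 (adjusted p = 3.48e-06) and KO against HET -1.76 ± 0.18 (adjusted p = 8.32e-05). HET lay between, with HET against WT at -0.56 ± 0.18 (adjusted p = 1). Without KO pIC replicate 4, KO against WT was -2.25 (adjusted p = 1.64e-05).

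Tbxas1 was 13.8, 17.3, 13.8, 22.4 and 21.0 TPM in WT pIC and 18.6, 27.8, 24.5, 45.0 and 31.5 in KO pIC (0.68 ± 0.19, adjusted p = 0.0325). The ranges overlapped, and without KO pIC replicate 4 the difference was 0.51 (adjusted p = 0.0607). Ptgs2 was 70.5, 106, 85.7, 45.2 and 99.2 TPM in WT pIC, 54.9, 93.2, 44.8, 53.9 and 139.8 in HET pIC and 409, 60.9, 279.6, 17.7 and 91.8 in KO pIC. The KO libraries spread on both sides of the other genotypes, and KO against WT was not called (0.40 ± 0.63, adjusted p = 0.729; without replicate 4, 1.02, adjusted p = 0.192). Ptges was 447, 623, 469.7, 508 and 426 TPM in WT pIC and 974, 547, 983, 333 and 704 in KO pIC (0.42 ± 0.22, adjusted p = 0.236). Without KO replicate 4, which was the lowest, it was called higher in KO than in WT (0.67, adjusted p = 0.0124) and than in HET (0.60).

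KO pIC replicate 4 was also the highest KO library for Hpgd, among 1.88, 14.1, 3.97, 39.5 and 9.54 TPM, for Ptger4, among 3.47, 12.7, 4.55, 32.9 and 9.68, and for Ptgs1, among 1.36, 1.72, 0.919, 5.94 and 2.15. None of the 3 was called against WT (0.82 ± 0.48, 0.35 ± 0.44 and 0.45 ± 0.31) or against HET. The summed microglia markers ranged from 3210 to 6220 TPM in KO pIC, against 2689 to 3351 in WT pIC, and their part in these spreads was not tested. Hpgds was 27.9 to 47.4 TPM in WT pIC and 22.7 to 60.7 in KO pIC (-0.01 ± 0.21). Alox5ap was 2.13 to 17.5 and 8.07 to 24.7 TPM (0.52 ± 0.48). Alox5 stayed at 0.299 to 1.11 TPM in WT pIC and 0.216 to 0.92 in KO pIC and did not pass the filter on low values. Of the 9 genes tested, 1 was called higher and 1 lower for KO against WT, beside 3.4% and 8.11% of 13919 genes, and 0 and 1 for KO against HET, beside 1.65% and 3.6%. HET against WT gave 0 (0% of all genes; 1 gene, Ptger2, at an unadjusted p under 0.05). With median-of-ratios scaling the background was 5.2% and 3.38% against WT and 2.08% and 1.55% against HET.

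Other genes of the pathway were read from a list of 58 symbols, of which 55 were in the files and 35 passed the filter outside pIC. With LPS in WT, 8 of the 35 rose and 18 fell, beside 13.9% and 61.9% of all genes, and their median was -0.50 against -0.59 for all genes. The steepest falls were those of Ltc4s, leukotriene C4 synthase, from 20.0 to 0.157 mean TPM (-4.19 ± 0.24), Ephx1 (-3.73 ± 0.17), Daglb (-3.23 ± 0.15) and Mgst3 (-2.89 ± 0.16). Ptgir, the prostacyclin receptor, rose by 2.69 ± 0.19 and Abcc1, an exporter of leukotriene C4, by 2.55 ± 0.17. With IL4 in WT 4 rose and 0 fell, beside 3.68% and 2.63% of all genes. Those that rose included Daglb (0.99 ± 0.15), Pla2g4a, the cytosolic phospholipase A2 that releases arachidonic acid (0.94 ± 0.18), and Ltc4s (0.81 ± 0.24, a call lost without the filter on low values, with a pseudocount of 0.1 and in 6 of 9 fits that left out a library).

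Between KO and WT under LPS, 15 of the 35 were higher and 2 lower, beside 14.4% and 13.2% of all genes, with a median of 0.25 against 0.01 for all genes. The leukotriene synthesis and degradation genes were higher in 5 of 8 and lower in 0. Mgst2, a glutathione transferase with leukotriene C4 synthase activity, was 0.635 mean TPM in WT LPS, 1.36 in HET LPS and 17.5 in KO LPS (3.25 ± 0.33 against WT, adjusted p = 2.05e-10). Dpep2, a peptidase that acts on leukotriene D4, was 3.53 in WT LPS and 14.0 in KO LPS (1.76 ± 0.22). Of the prostanoid synthases and reductases 3 of 6 were higher and 0 lower, and of the degradation and transport genes 3 of 4 and 0. Ptgr1, a prostaglandin and leukotriene reductase, was higher by 2.20 ± 0.29, Abcc4, a prostaglandin exporter, by 1.36 ± 0.15, and Prxl2b, a prostaglandin F synthase, by 1.28 ± 0.22. Ephx1, an epoxide hydrolase, was higher by 1.06 ± 0.16. Of the arachidonate release genes 1 of 11 was higher and 2 were lower, shares near those of all genes. The LPS response of KO minus that of WT was higher for 12 of the 35 and lower for 0, beside 9.36% and 7.03% of all genes (7.18% and 10.4% with median-of-ratios scaling), led by Mgst2 (2.95 ± 0.47), Ptgr1 (2.01 ± 0.43), Prxl2b (1.65 ± 0.32), Dpep2 (1.53 ± 0.32), Abcc4 (1.38 ± 0.22) and Ltc4s (1.25 ± 0.34).

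For KO against WT under pIC, 1 of 32 genes of this list was higher and 4 were lower, close to the 3.4% and 8.11% of all genes. Ltc4s was 16.6 mean TPM in WT pIC, 12.5 in HET pIC and 4.5 in KO pIC (-1.75 ± 0.22, adjusted p = 0.000185). Under LPS the same gene was 1.17 ± 0.23 for KO against WT, at means of 1.9 and 0.157 TPM. The 2 differences come from separate tables and were not tested against each other. Cyp4f18, a leukotriene B4 hydroxylase, was -0.78 ± 0.20, Ptges2, another prostaglandin E synthase, -0.72 ± 0.11, and Ptgr2, a prostaglandin reductase, -0.52 ± 0.16, the last no longer called under either other scaling, without the filter, in a fit of the compared groups alone or in 7 of 10 fits that left out a library. Dpep2 was higher (0.62 ± 0.13).

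Across the 44 untreated, LPS and IL4 libraries, the genes whose log2(TPM + 1) followed a member most closely are given as a description, since these libraries share treatments and genotypes. Ptgs2 was followed by Cemip2 (Pearson r = 0.990), Csf3 (0.989) and Il6 (0.989), and Ptges by Traf1 (0.995), Sod2 (0.995) and Cfb (0.994). Hpgd was followed by Rap2a (0.995), Wwp1 (0.994) and Arhgap19 (0.994), Tbxas1 by Cnr2 (0.990), Gsn (0.989) and Cd300lb (0.987), and Ptgs1 by Pip5k1c (0.972), H2-DMa (0.971) and Ilk (0.966). For Hpgds the leading gene was Otud1 (0.964), for Ptger2 Rassf1 (0.911), for Ptger4 Fhod1 (0.911), for Alox5 Igfbp4 (0.886) and for Alox5ap Ftl1 (0.869). Among the members, Ptgs2 and Ptges had r = 0.977, Ptgs1 and Tbxas1 r = 0.949, and Ptger4 and Alox5 r = 0.859, while Ptgs2 and Hpgd had r = -0.974. Exons of Ptgs1, Ptger2, Ptger4, Tbxas1 and Alox5ap overlap those of other genes on the opposite strand in GENCODE on mm10, and since the sources used here do not state whether counting used strand, reads of these pairs cannot be told apart.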

How the data were processed

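Each library took 300 ng of RNA into an mRNA kit that the labels' protocols name. Picard, DRAGEN, Trimmomatic and FastQC and the build mm10 stand, without versions, in the submitters' processing notes. The authors deposited TPM per gene, with 44 libraries in a table and the 15 of pIC in another, each of 32070 genes. TPM keeps no depth, so no counting interval is given, and a few abundant genes that rise lower all others.

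The values were taken as log2(TPM + 1), and a gene was tested where it had 1 TPM or more in 4 libraries or more (15908 and 13919 genes). The test was limma's moderated test with a trend (limma 3.58.1 in R 4.3.3, tables read with the data.table package, release 1.17.8), with all groups of a table sharing a spread, adjusted by Benjamini-Hochberg over all genes of the table and called at 0.05. The scripts were tested on simulated data. Tables were handled in Python 3.11.15 with pandas 2.3.3, numpy 2.4.6 and matplotlib 3.10.9. No test was made across tables.

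The 10 genes, the wider list, the marker lists and the motifs were chosen with earlier results of these data known. All 10 genes were described in every group. Of the wider list, up to 6 called genes with at least 5 mean TPM in the higher group were named per comparison, by size of difference. Like genes were the 3 with the highest Pearson r among 10248 genes with at least 5 mean TPM, without predicted genes and pseudogenes, and for 5 genes 1 is given. Same-numbered replicates deviated together from their group means across genes, with every pair over r = 0.1, for WT UT with WT LPS (0.117 to 0.273), WT IL4 (0.191 to 0.418) and HET UT (0.121 to 0.29), and for KO UT with KO LPS (0.13 to 0.345) and KO IL4 (0.173 to 0.558). For the other groups compared, at least 1 pair was below 0.1. Still, the mean r of same-numbered libraries was above that of other numbers for every pair of groups. It was 0.267 against -0.066 for WT IL4 with HET IL4, 0.245 against -0.06 for WT pIC with HET pIC and 0.087 against -0.021 for HET LPS with KO LPS. The main fit had no term for the replicate number and took the libraries as independent. Alternatives were quantile normalization, median-of-ratios scaling, a pseudocount of 0.1, no filter, the compared groups fitted alone, a replicate block, and leaving out each library in turn.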

Additional observations from a re-analysis of the deposited data

Results flagged for a closer look

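In 7 of 120 sets of a gene and a group, the highest or lowest library stood apart from the others by Dixon's test. Chance gives this in about 1 in 20 sets. The libraries were HET IL4 replicate 5 for Ptgs1 (155.5 TPM, lowest), HET IL4 replicate 2 for Ptgs2 (10.7 TPM) and Ptges (3.15 TPM), both highest, and WT pIC replicate 5 for Ptger2 (5.32 TPM, lowest). WT LPS replicate 1 was highest for Ptger4 (5.13 TPM) and lowest for Alox5ap (4.84 TPM), and HET LPS replicate 1 was lowest for Alox5ap (7.61 TPM).

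The LPS response of KO differed from that of WT by limma's test of the difference itself for Ptgs1 (2.24 on the log2 scale), Ptgs2 (-3.43), Ptges (-0.96), Hpgds (-1.40), Ptger2 (-1.40), Ptger4 (2.25), Tbxas1 (0.77), Alox5 (1.68) and Alox5ap (1.91). Against HET the same 9 genes gave 1.55 for Ptgs1, -3.50 for Ptgs2, -0.86 for Ptges, -1.24 for Hpgds, -0.91 for Ptger2, 1.74 for Ptger4, 0.93 for Tbxas1, 1.91 for Alox5 and 1.59 for Alox5ap.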

How the results depend on the processing

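The number of the 10 genes called stayed within 1.5 times in 21 of the 24 comparisons under all alternatives. For IL4 in WT, 5 genes were called and 3 under median-of-ratios scaling. For KO against WT under pIC, 2 were called, and 1 without the filter on low values and 1 in a fit of the compared groups alone. Leaving out each library gave 1 to 2 there, with 1 (Ptger2 alone) without WT pIC replicate 1, 2 or 3 or KO pIC replicate 5. For KO against HET under pIC, 1 was called, leave-one-out gave 1 to 2, with 2 without KO pIC replicate 4, and the fit with a replicate block gave 2, adding Tbxas1 (adjusted p = 0.014). The block also added Hpgds (adjusted p = 0.0167) and Ptger2 (adjusted p = 0.00659) to IL4 in HET, where not every same-numbered pair of libraries was over r = 0.1 (0.053 to 0.522), and apart from these and the Hpgds calls given with IL4 it changed no call. No called difference of the 10 genes or of the wider-list genes named reversed its sign under any alternative run. The difference of the Ptges LPS response between KO and HET lost its call in 15 of 20 leave-one-out fits (-0.97 to -0.76), and that of Alox5ap in 12 of 20 (1.13 to 1.74). The Ptges response of KO against WT lost it in 2 of 19, without WT UT replicate 3 (-0.92) or 4 (-0.85). Tbxas1 for KO against WT under pIC lost it in 5 of 10 (0.51 to 0.82), and Ptger4 with IL4 in 9 of 10 for HET and 6 of 10 for KO. The Hpgd response of KO against HET was called without HET LPS replicate 2 (0.96) or KO LPS replicate 5 (0.92), Ptges with IL4 without HET IL4 replicate 2 (-0.56), and Alox5 with IL4 without WT IL4 replicate 1 (-0.96). The cause was not tested. The unknown depth limits statements on genes near 1 TPM, Ptges and Ptgs2 without LPS and Alox5 under pIC among them.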
